A study of Mus musculus with 19 samples.

Results

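The oxidative phosphorylation genes described here encode the subunits of the mitochondrial respiratory complexes and of ATP synthase, together with cytochrome c and several factors that assemble complex I. They were taken by symbol. Every gene whose symbol begins with Nduf, Uqcr, Atp5 or Cox4 to Cox8 was a member, as were Cyc1, Cycs and the 4 Sdh genes. This gave 94 of the 24343 gene symbols in the tables. They were 36 subunits and 7 assembly factors of complex I, 4 subunits of complex II, 10 genes of complex III and cytochrome c, 20 of complex IV and 15 of complex V. The other 2, Atp5s and Atp5sl, carry an ATP synthase name but were not counted as subunits. The rule uses symbols alone, and the subunits encoded in mitochondrial DNA were not analysed here.

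RNA was sequenced from stromal, luminal and basal cells that had been sorted by flow cytometry from the anterior lobes of mouse prostates. The Lgr5-DTR mice carry a fusion of the diphtheria toxin receptor and eGFP at Lgr5 and had been treated with diphtheria toxin, which kills cells that make the receptor. They gave 4 stromal, 3 luminal and 3 basal libraries. The wild type mice were C57BL/6 animals bought from a breeder, and gave 3 libraries of each population. The labels do not say whether the wild type mice received toxin, so genotype, toxin and supplier differ together and cannot be told apart. Nor do they state that each library is a separate animal, so the p-values reflect only how libraries vary, and that variation may be technical. The study was designed to ask what changes in each population after the Lgr5-expressing stromal cells are ablated.

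In oxidative phosphorylation, complex I takes electrons from NADH and complex II takes them from succinate. Complex III passes them to cytochrome c, and complex IV hands them to oxygen. Complexes I, III and IV pump protons across the inner mitochondrial membrane, and ATP synthase, complex V, uses the return flow to make ATP. Several complex IV subunits and the c subunit of ATP synthase are encoded by more than 1 nuclear gene, and some of those copies are known from muscle, lung or testis. Luminal cells of the prostate are secretory cells, basal cells lie beneath them, and stromal cells surround the epithelium.

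The libraries held 5.26 to 9.38 gigabases on annotated transcripts (median 7.73), and levels are given in FPKM, fragments scaled to transcript length and to the mapped total of the library. Of the 94 members, 89 reached 1 FPKM in at least 3 of the 19 libraries, as did 12357 genes in all. The members that entered no comparison were Ndufaf5, Cox6a2, Cox7b2, Cox8b, Cox8c and Ndufa4l2, of which Ndufa4l2 was listed at 0 in all 19 libraries. In stromal cells Lgr5 was at 0.501 to 1.32 FPKM in Lgr5-DTR mice, against 25.8 to 77.6 FPKM in wild type mice. The fibroblast markers, 7 genes summed, lay at 2744 to 3381 FPKM in the Lgr5-DTR stromal sort, against 5368 to 5643 FPKM in that of wild type mice. The 12 luminal markers lay at 18192 to 25751 FPKM in Lgr5-DTR and 26918 to 29735 FPKM in wild type luminal libraries, a difference carried by the secretory gene Pbsn, at 7500 to 9647 and 16876 to 22090 FPKM in these. The 8 basal markers lay at 7549 to 9181 and 10289 to 13292 FPKM in the basal libraries of the same genotypes. Luminal markers also reached 8572 to 11647 FPKM in Lgr5-DTR basal libraries and 6073 to 7111 FPKM in wild type basal libraries, and the part of this in the basal values below was not tested. In sorted bulk cells, fewer cells of a type and less RNA per cell cannot be told apart.

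The members spanned a wide range of levels. Averaged over the 19 libraries they ranged from 0.439 to 683 FPKM among the 89, with a median of 75.3 FPKM. The highest was Atp5b, the catalytic beta subunit of ATP synthase. Summed over all 94, the members made up 1.82% of all FPKM in Lgr5-DTR and 1.81% in wild type stromal libraries, 3.61% and 4.37% in luminal libraries, and 2.37% and 2.68% in basal libraries of the same genotypes. Their order of level was much alike everywhere. Spearman's rho across the 89 members was 0.982 between the genotypes in stromal cells, 0.988 in luminal cells and 0.982 in basal cells, and at least 0.898 between any pair of the 6 groups. Members are not independent of each other, and no test was made of this. Many of these genes, Cycs among them, have processed pseudogenes in the mouse genome, and reads shared with such copies can shift their FPKM. Another 15 members overlap a second annotated gene, among them Atp5b, Atp5d, Cox4i2, Ndufa2, Ndufa13 and Ndufs1, and their FPKM are uncertain for that reason.

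**Figure D1:**
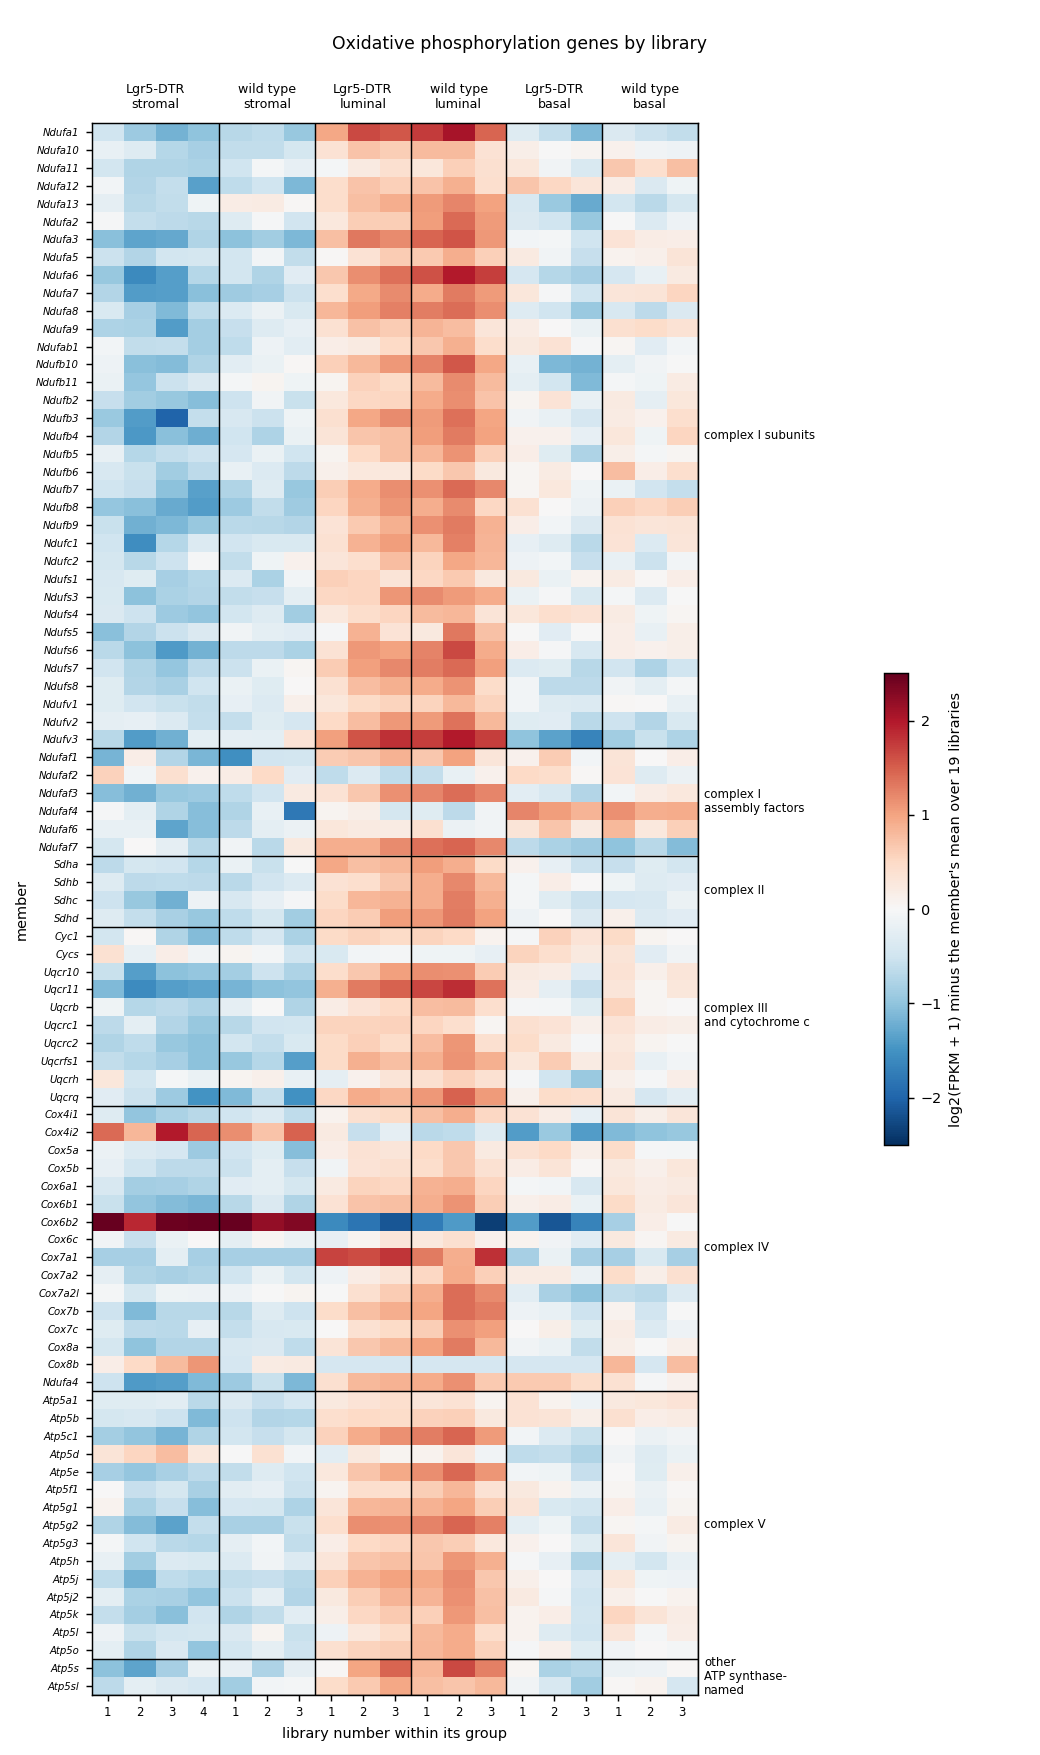
Level of 88 members in each of the 19 libraries, as the log2(FPKM + 1) value minus that member's mean over all libraries, with members in rows by complex and libraries in columns by population and genotype; the colour scale stops at 2.5 in either direction. The luminal columns are high for nearly all members, while a few rows, Cox6b2 and Cox4i2 among them, are high in the stromal columns.

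Luminal cells carried the most oxidative phosphorylation transcript and stromal cells the least, in both genotypes. Among the 89 members, luminal cells had the highest mean for 79 in Lgr5-DTR mice and for 78 in wild type mice, and stromal cells the lowest for 72 and 71. The sum over all members was 6496 ± 841 FPKM in the 4 Lgr5-DTR stromal libraries and 7177 ± 577 FPKM in the 3 wild type stromal libraries (SD). It was 14846 ± 2210 and 18337 ± 2552 FPKM (SD, n = 3 each) in Lgr5-DTR and wild type luminal libraries, and 9437 ± 1286 and 10464 ± 882 FPKM (SD, n = 3 each) in Lgr5-DTR and wild type basal libraries. Within each genotype the 3 populations did not overlap in this sum as FPKM, but after TMM scaling 1 Lgr5-DTR luminal library, at 9691, lay within the range of the Lgr5-DTR basal libraries, 8984 to 10578. Library differences within a group were shared by many members, and among luminal libraries the sum was lowest in Lgr5-DTR replicate 1, at 12349 FPKM, and highest in wild type replicate 2, at 20976 FPKM. The wild type luminal sum was 1.75 ± 0.285 times the wild type basal sum, and the wild type stromal sum was 0.686 ± 0.0799 times the basal and 0.391 ± 0.0629 times the luminal sum. In Lgr5-DTR mice the same ratios were 1.57 ± 0.318, 0.688 ± 0.129 and 0.438 ± 0.0863. The error of each ratio is carried over from the SDs of its groups. The second set leans on the scaling of the libraries: after TMM scaling the Lgr5-DTR luminal to basal ratio was 1.21 and the stromal to luminal ratio 0.625.

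The luminal excess differed in size between the complexes. In wild type mice the luminal to basal ratio of the summed FPKM was 2.45 ± 0.35 for complex II and 2.21 ± 0.37 for complex I. It was 1.80 ± 0.35 for complex III with cytochrome c, 1.56 ± 0.25 for complex IV and 1.50 ± 0.23 for complex V. The 7 complex I assembly factors had the smallest ratio, 1.20 ± 0.16. The differences between these ratios were not tested. Complex I subunits summed to 5492 ± 836 FPKM in wild type luminal libraries and 2491 ± 176 FPKM in wild type basal libraries, while complex V summed to 4300 ± 548 and 2858 ± 230 FPKM (SD, n = 3 each).

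**Figure D2:**
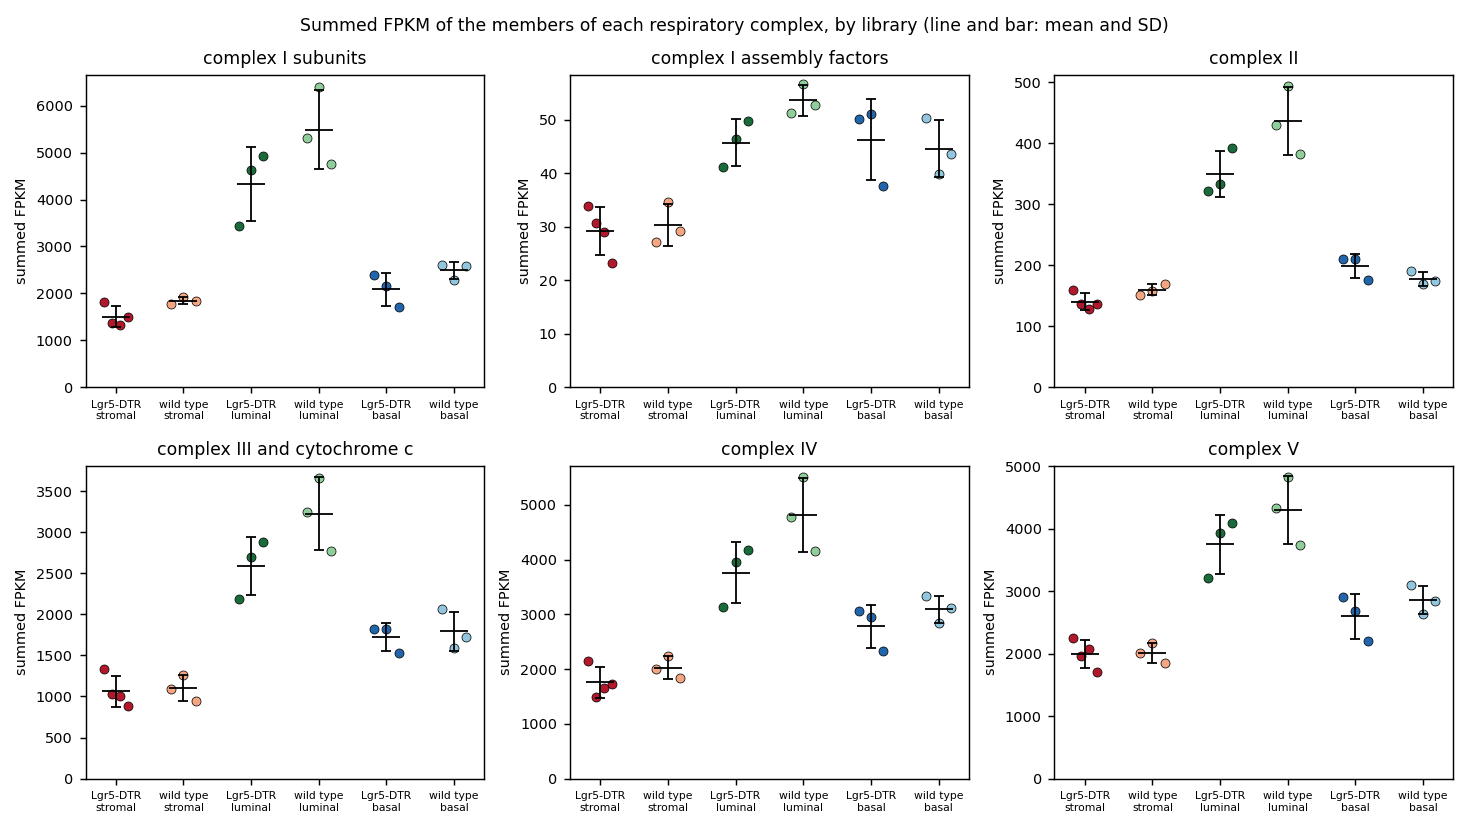
FPKM summed over the members of each complex in every library (points), with the mean and SD of each group, for stromal, luminal and basal cells with Lgr5-DTR left of wild type. Luminal libraries lie highest in complexes I to V in both genotypes, and the genotypes overlap in each population for complexes I to V.

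Differences between the populations were tested in the wild type libraries, with limma over all 11566 genes tested and Benjamini-Hochberg adjustment, and a gene is said to be higher, lower or called where its adjusted p was under 0.05. All log2 differences are of log2(FPKM + 1), which understates the change of low genes. In luminal against basal cells 64 of 88 members tested were higher and 2 lower, where 36.8% of all genes were higher and 25.5% lower. Their median difference was 0.82, against 0.14 over all genes. In stromal against luminal cells 3 members were higher and 80 lower, where 28.5% and 39.3% of all genes were, with a median of -1.24 against -0.23. In stromal against basal cells 7 members were higher and 43 lower, where 29.2% and 27.8% of all genes were, with a median of -0.45 against 0.00. These 3 comparisons share their libraries and are not independent.

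In both comparisons with luminal cells, short genes as a class differed in the same direction as the members, but not in stromal against basal cells. The members are short, with a median leading transcript of 703 bases (292 to 3632) against 2690 for all expressed genes, and 62 of the 94 are under 1000 bases, a class that holds 9.31% of all expressed genes. In luminal against basal cells all genes under 1000 bases had a median of 0.75 and the members in that class 0.83, while between 1000 and 2500 bases the medians were 0.36 for all genes and 0.90 for 26 members. In stromal against luminal cells the medians under 1000 bases were -0.75 for all genes and -1.40 for the members, and in stromal against basal cells 0.02 and -0.47. When the trend of the difference with length was removed, a correction chosen after the data had been seen, the luminal to basal count fell to 28 higher and 16 lower with a median of 0.10, and 4 members called higher before were then called lower. The stromal against luminal count became 7 higher and 57 lower (median -0.53), and the stromal against basal count 8 higher and 42 lower (median -0.40).

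**Figure D3:**
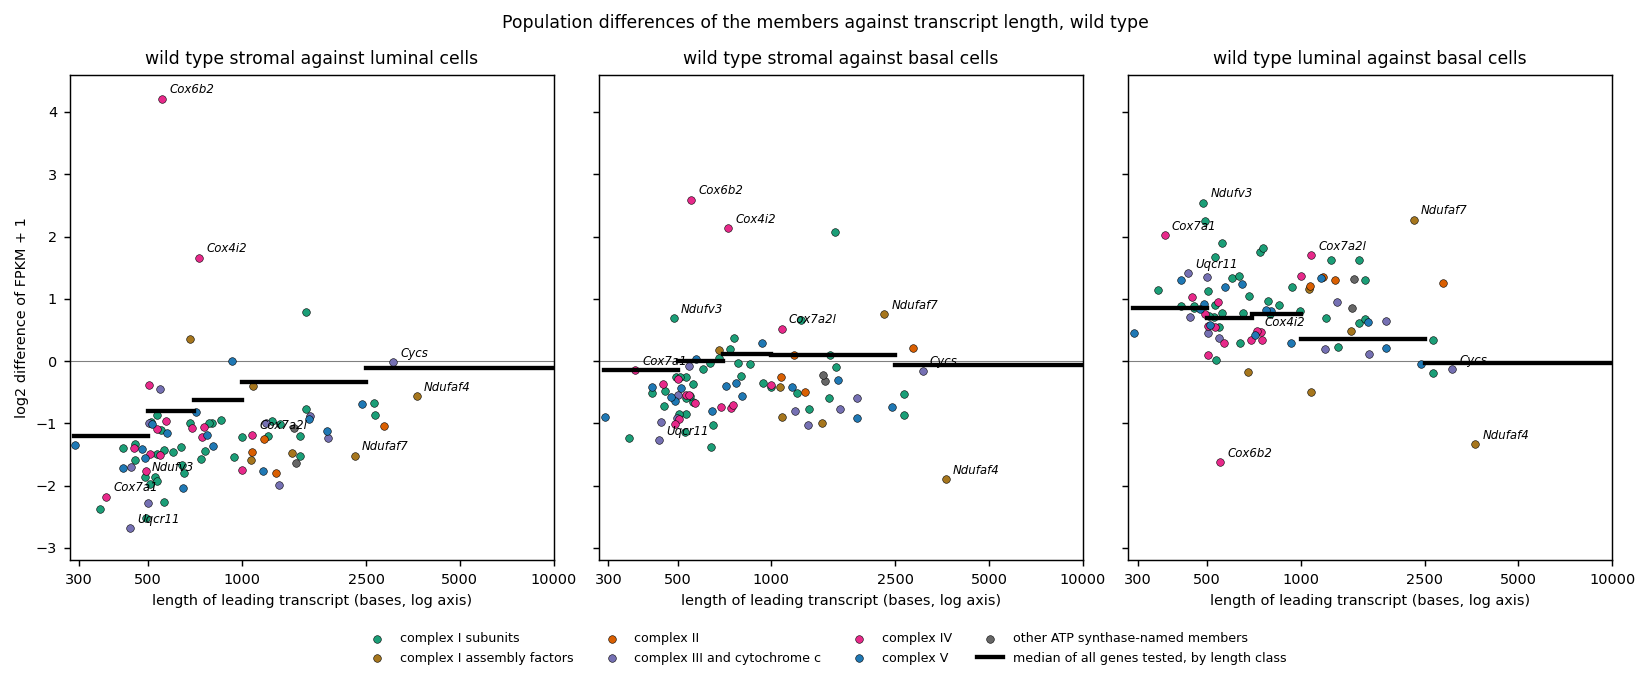
Wild type log2 differences of the members (points, coloured by complex) against the length of the leading transcript in bases on a log axis, for stromal against luminal, stromal against basal and luminal against basal cells, with the median of all genes tested in each length class as black bars. The bars show short genes high in luminal cells, and most members lie below the bars in both stromal comparisons, with Cox6b2 and Cox4i2 far above them.

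Complex I, the NADH dehydrogenase, followed the general order, with 31 of its 36 subunits higher in luminal than basal cells (median 0.89) and 35 lower in stromal than luminal cells. Ndufv3, a small subunit of the NADH-binding arm, had the largest luminal excess over basal cells of the 36. It measured 170, 205 and 172 FPKM in wild type luminal libraries, against 27.5, 34.4 and 29.2 FPKM in wild type basal libraries (log2 difference 2.55, SE 0.19, limma adjusted p = 3.3e-07). Ndufa1, a short membrane-arm subunit encoded on the X chromosome, measured 871, 1080 and 716 FPKM in wild type luminal libraries, against 202, 179 and 169 FPKM in wild type basal libraries (2.25, SE 0.18, limma adjusted p = 4.2e-07). In both genes every luminal library lay several fold above every basal library. In wild type stromal libraries Ndufa1 measured 159, 166 and 135 FPKM, a difference of -0.26 from basal cells that did not pass (limma adjusted p = 0.23).

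Of the complex I assembly factors, 2 of 6 tested were higher and 1 lower in luminal than basal cells. These counts did not exceed the shares of all genes, 36.8% higher and 25.5% lower. Ndufaf7, a methyltransferase, measured 8.09, 8.69 and 7.09 FPKM in wild type luminal libraries, against 0.748, 1.19 and 0.652 FPKM in wild type basal libraries (log2 difference 2.27, SE 0.25, limma adjusted p = 6.2e-06). Ndufaf4 was highest in basal cells in both genotypes. It measured 4.55, 3.34 and 5.39 FPKM in wild type luminal libraries, against 13.9, 11.8 and 11.9 FPKM in wild type basal libraries (-1.33, limma adjusted p = 0.0038). Ndufaf4 and Ndufaf6 were the assembly factors with a basal maximum in both genotypes.

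Complex II is succinate dehydrogenase, which also works in the citric acid cycle. All 4 subunits were higher in wild type luminal than basal cells and lower in wild type stromal than luminal cells. The catalytic flavoprotein Sdha measured 96.2, 87.6 and 64.3 FPKM in wild type luminal libraries, against 30.6, 37.0 and 33.2 FPKM in wild type basal libraries. The log2 differences in luminal against basal cells were similar across the enzyme, at 1.26 for Sdha, 1.21 for the iron-sulfur subunit Sdhb, and 1.35 and 1.30 for the membrane anchors Sdhc and Sdhd. In stromal against luminal cells they were -1.05, -1.46, -1.24 and -1.79. Between stromal and basal cells only Sdhd passed, at -0.49 (limma adjusted p = 0.038). Sdhd passed in 5 of 9 leave-outs but not without replicate 1 or 3 of the wild type stromal or basal libraries (adjusted p up to 0.154), and not with no filter on low values (adjusted p = 0.0535).

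Complex III with cytochrome c had 6 of 10 members higher in luminal than basal cells, 9 lower in stromal than luminal cells and 7 lower in stromal than basal cells. The small subunit Uqcr11 had the largest negative difference of the 88 members in stromal against luminal cells. It measured 110, 123 and 125 FPKM in wild type stromal libraries, against 795, 896 and 639 FPKM in wild type luminal libraries (log2 difference -2.68, SE 0.16, limma adjusted p = 2.4e-08). The core subunit Uqcrc1 and the cytochrome Cyc1 had luminal against basal differences of 0.11 and 0.20 that did not pass (limma adjusted p = 0.58 and 0.38), but both were lower in stromal than basal cells, at -0.77 and -0.80. Cycs, the soluble electron carrier that is also released from mitochondria in apoptosis, was not called in any population comparison. Its wild type values were 40.3, 37.3 and 26.9 FPKM in stromal, 35.6, 35.8 and 33.2 FPKM in luminal and 48.7, 31.7 and 36.3 FPKM in basal libraries, which overlap.

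Complex V, the ATP synthase, had 10 of 15 members higher in luminal than basal cells, 2 of 5 in its catalytic F1 part and 8 of 10 in its stalk and membrane part. Of all genes 36.8% were higher there, and the F1 count was near that share. Atp5b measured 447, 390 and 391 FPKM in wild type stromal, 958, 975 and 766 FPKM in wild type luminal and 852, 728 and 745 FPKM in wild type basal libraries. Luminal and basal libraries overlapped (log2 difference 0.21, limma adjusted p = 0.25), and the stromal level was lower than both, at -1.13 against luminal and -0.92 against basal cells. Atp5a1, the alpha subunit, had a luminal against basal difference of -0.04 (limma adjusted p = 0.82). The c subunit, which forms the rotating ring, has an identical mature protein from its 3 genes Atp5g1, Atp5g2 and Atp5g3. Atp5g3 made up 75.0% of their summed FPKM in wild type stromal, 63.2% in wild type luminal and 71.7% in wild type basal cells. Atp5g2 made up 7.97%, 15.7% and 10.0%, and its log2 difference of 1.24 in luminal against basal cells was the largest of the 3 (limma adjusted p = 2.8e-05). The Lgr5-DTR shares of Atp5g2 were 7.62% in stromal, 13.3% in luminal and 8.60% in basal cells, in the same order.

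Complex IV, cytochrome c oxidase, had 9 of 15 tested members higher and 1 lower in luminal than basal cells, and 13 lower and 2 higher in stromal than luminal cells. The 2 higher in stromal cells were Cox6b2 and Cox4i2, each the less common copy of a subunit that every population, stromal cells included, expressed mainly from Cox6b1 or Cox4i1. The promoters of 5 members are shown here because they belong to these isoforms, to Cox7a1, to Cox6a1, a general subunit, and to Cycs, whose promoter is known for its sites for nuclear respiratory factor. Each runs 5′ to 3′ from 250 bases before to 50 after the gene's start, in RefSeq's GRCm38.p6, and capitals mark matches on either strand to the motifs named below.
Cox6b2 (chr7:4753045-4753344, minus strand): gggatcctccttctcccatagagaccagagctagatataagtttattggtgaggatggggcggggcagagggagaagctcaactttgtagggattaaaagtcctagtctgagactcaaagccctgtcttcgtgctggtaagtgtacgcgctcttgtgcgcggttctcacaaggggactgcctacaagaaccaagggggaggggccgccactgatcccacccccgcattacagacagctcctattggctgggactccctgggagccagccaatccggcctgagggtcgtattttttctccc
Cox6b1 (chr7:30626065-30626364, minus strand): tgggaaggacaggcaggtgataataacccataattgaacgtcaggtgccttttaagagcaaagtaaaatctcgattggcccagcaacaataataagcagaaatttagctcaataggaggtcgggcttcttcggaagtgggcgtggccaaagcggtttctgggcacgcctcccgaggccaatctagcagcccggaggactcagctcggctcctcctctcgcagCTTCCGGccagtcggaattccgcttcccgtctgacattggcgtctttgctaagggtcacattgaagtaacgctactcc
Cox7a1 (chr7:30183921-30184220, plus strand): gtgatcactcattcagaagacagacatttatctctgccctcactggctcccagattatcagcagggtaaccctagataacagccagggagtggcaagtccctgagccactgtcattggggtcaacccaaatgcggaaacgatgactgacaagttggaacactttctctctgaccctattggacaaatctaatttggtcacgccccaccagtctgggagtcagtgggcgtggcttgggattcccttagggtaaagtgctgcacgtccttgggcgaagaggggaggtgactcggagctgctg
Cox6a1 (chr5:115348909-115349208, minus strand): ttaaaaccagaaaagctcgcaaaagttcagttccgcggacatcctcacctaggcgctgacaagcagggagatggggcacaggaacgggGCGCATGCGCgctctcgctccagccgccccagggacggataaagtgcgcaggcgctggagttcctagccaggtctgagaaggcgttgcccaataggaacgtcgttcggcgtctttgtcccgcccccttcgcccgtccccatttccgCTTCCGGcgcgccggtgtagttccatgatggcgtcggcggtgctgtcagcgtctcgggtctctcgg
Cycs (chr6:50566520-50566819, minus strand): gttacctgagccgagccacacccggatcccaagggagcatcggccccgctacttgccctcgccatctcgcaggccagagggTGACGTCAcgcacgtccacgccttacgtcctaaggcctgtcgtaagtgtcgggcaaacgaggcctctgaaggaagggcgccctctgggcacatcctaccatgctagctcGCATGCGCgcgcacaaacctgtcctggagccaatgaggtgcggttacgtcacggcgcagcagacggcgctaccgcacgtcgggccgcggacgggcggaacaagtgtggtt

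The motifs searched were GCGCATGC, a core of the site of nuclear respiratory factor 1, CCGGAAG, a core of ETS factors such as GABPA, AAGATGGCG, a core of YY1, and TGACGTCA, the cyclic AMP response element. RefSeq promoters were matched for 77 of the 94 members, and 35 of those held at least 1 of the motifs. The nuclear respiratory factor 1 core stood in 13 of the 77 (16.9%) and in 3.05% of all 27025 genes with a promoter, and the ETS core in 17 (22.1%) and in 9.93%. The YY1 core stood in 8 (10.4%) and in 1.64%, and the cyclic AMP response element in 5 (6.49%) and in 2.03%. Cox6a1 held the first as overlapping matches on both strands and an ETS core, Cox6b1 an ETS core, and Cycs the first and a cyclic AMP response element. The windows of Cox6b2 and Cox7a1 held none of the 4, which says only that these letters are not in these 300 bases. A match is a description of the sequence and not a measured site. No promoters were matched for Cox4i1 and Cox4i2.

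Cox6b2, known as the testis form of subunit VIb, was a stromal transcript in these cells. It measured 28.9, 17.9, 27.0 and 39.2 FPKM in Lgr5-DTR stromal libraries and 29.9, 22.6 and 24.3 FPKM in wild type stromal libraries. Luminal libraries held 0.690, 0.448 and 0.163 FPKM in Lgr5-DTR mice and 0.512, 0.906 and 0 FPKM in wild type mice. The stromal and luminal libraries were far apart, and in wild type the log2 difference in stromal against luminal cells was 4.21 (SE 0.30, limma adjusted p = 7.6e-08). Basal cells stood between, with 1.89, 4.71 and 4.09 FPKM in wild type libraries, and the log2 difference was 2.59 in stromal against basal cells (limma adjusted p = 9.4e-06) and -1.62 in luminal against basal cells (limma adjusted p = 0.00042). It made up 14.0% ± 4.82 of the summed Cox6b1 and Cox6b2 FPKM in Lgr5-DTR stromal cells (SD, n = 4) and 10.5% ± 2.34 in wild type stromal cells (SD, n = 3), and less than 1% in every other group mean. Cox6b1 ran opposite, at 208, 262 and 199 FPKM in wild type stromal libraries, against 635, 733 and 519 FPKM in wild type luminal libraries (-1.49). The 5 germ cell markers summed to 3.14 to 4.97 FPKM in Lgr5-DTR and 2.61 to 4.41 FPKM in wild type stromal libraries, and to 8.79 to 12.6 and 10.4 to 13.0 FPKM in the luminal libraries of the same genotypes, where Odf2 made up nearly all of the sum. The protamine gene Prm1 was at 1.18, 1.36, 1.20 and 0 FPKM in Lgr5-DTR stromal libraries and at 0.476, 0.625 and 0 FPKM in wild type stromal libraries, and at 0 in all 6 luminal libraries. The protamine Prm2 and the transition protein Tnp1 were at 0 in all 7 stromal libraries, and the part of germ cell RNA in Cox6b2 was not tested.

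Cox4i2, the copy of subunit IV known from lung and for its induction at low oxygen, was also highest in stromal cells. It measured 6.05, 3.72, 9.47 and 6.20 FPKM in Lgr5-DTR and 4.91, 3.32 and 6.30 FPKM in wild type stromal libraries, and no more than 2.10 FPKM in any luminal or basal library. The wild type differences were 1.66 in stromal against luminal cells (limma adjusted p = 2.0e-05) and 2.14 in stromal against basal cells (limma adjusted p = 3.1e-06). Even so, Cox4i1 supplied nearly all subunit IV transcript in stromal cells, where Cox4i2 made up 2.18% in Lgr5-DTR and 1.48% in wild type mice. Bcl2l1, which overlaps Cox4i2, had the opposite order, at 17.1 FPKM in Lgr5-DTR and 12.5 FPKM in wild type stromal cells, and at 57.5 and 64.0 FPKM in basal cells of the same genotypes.

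Cox7a1, the heart and skeletal muscle form of subunit VIIa, was a luminal transcript. It measured 4.73, 4.49 and 5.17 FPKM in Lgr5-DTR and 3.36, 2.34 and 5.31 FPKM in wild type luminal libraries. It was listed at 0 in all 3 wild type stromal libraries, in 3 of 4 Lgr5-DTR stromal libraries, and in 4 of the 6 basal libraries, and it reached at most 0.588 FPKM in the others. The wild type log2 difference in luminal against basal cells was 2.03 (SE 0.23, limma adjusted p = 7.8e-06). Of the wild type libraries only the luminal ones reached 1 FPKM, so the gene met the filter through the group where it was high. It was not tested when a wild type luminal library was left out. Its share of the Cox7a1 and Cox7a2 sum was 6.46% in Lgr5-DTR and 3.54% in wild type luminal cells. The 8 skeletal muscle markers summed to 0.955 to 3.21 FPKM in Lgr5-DTR and 1.27 to 3.02 FPKM in wild type luminal libraries, at most 2 of the 8 reached 1 FPKM in any of these, and Tnni2 and Atp2a1 were at 0 in all 6. The 6 pericyte markers averaged 34.6 FPKM in Lgr5-DTR and 12.5 FPKM in wild type luminal libraries as a sum. In stromal libraries of the same genotypes the sum averaged 33.4 and 45.1 FPKM. Rgs5 was at 1.94 to 10.2 FPKM in luminal libraries and under 1 FPKM in all others. Pdgfrb and Cspg4 ran the other way in wild type, with Pdgfrb at 19.4 to 41.3 FPKM in stromal and 1.42 to 4.46 FPKM in luminal libraries. The part of pericyte RNA in Cox7a1 was not tested. Cox7a2, the general form, measured 91.9, 122 and 96.7 FPKM in wild type luminal libraries. Among the other muscle or tissue copies, Cox8b stayed at or below 1.87 FPKM in every library.

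**Figure D4:**
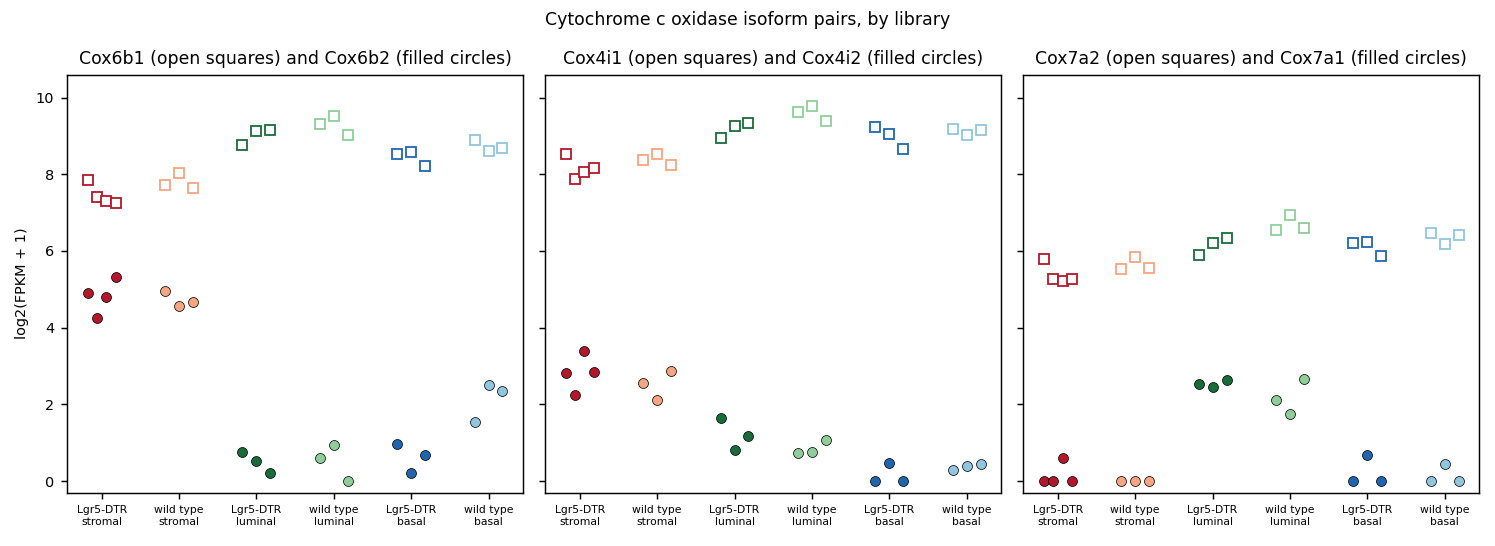
Level of 3 complex IV isoform pairs in every library, as log2(FPKM + 1), with the general copy as open squares and the other as filled circles, and with stromal, luminal and basal cells side by side and Lgr5-DTR left of wild type. Cox6b2 and Cox4i2 lie high in the stromal libraries and Cox7a1 in the luminal ones, while Cox6b1, Cox4i1 and Cox7a2 are highest in the luminal libraries.

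Between the genotypes, few members passed in any population, and most differences were small and negative. In stromal cells 0 of 87 members were called, where 1.17% of all 10689 genes were. An unadjusted limma p under 0.05 was found in 11 of the 87, and in 1230 of all 10689 genes. The median of the members was -0.21, against -0.09 over all genes, and 69 of the 87 lay below 0. Among genes under 1000 bases the median was -0.19 for all genes and -0.22 for the members. All 4 Lgr5-DTR libraries lay below all 3 wild type libraries in 13 members and above them in 0, where 9.39% of all genes were lower and 1.80% higher in this way. Ndufv3 measured 31.0, 18.6, 21.5 and 42.6 FPKM in Lgr5-DTR stromal libraries, against 43.3, 42.6 and 64.9 FPKM in wild type stromal libraries (log2 difference -0.85, limma adjusted p = 0.27). The lowest adjusted p of a member was 0.269.

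In luminal cells 0 of 87 members were called, where 3.14% of all 10524 genes were. An unadjusted limma p under 0.05 was found in 15 of the 87, and in 2386 of all 10524 genes. The median of the members was -0.29, against 0.10 over all genes, and 77 of 87 lay below 0. The groups did not overlap in 21 members that were lower and 1 that was higher in Lgr5-DTR mice, where 9.63% of all genes were lower and 17.4% higher in this way. Cox7a2l, known as an assembly factor of respiratory supercomplexes, came nearest to the threshold. It measured 57.6, 76.4 and 90.2 FPKM in Lgr5-DTR luminal libraries, against 109, 153 and 132 FPKM in wild type luminal libraries (-0.81, SE 0.21, limma adjusted p = 0.068). Ndufa2 measured 129, 167 and 167 FPKM, against 226, 292 and 228 FPKM in wild type luminal libraries (-0.68, limma adjusted p = 0.078), and Atp5e, the epsilon subunit, 203, 272 and 327 FPKM, against 377, 459 and 365 FPKM in wild type (-0.60, limma adjusted p = 0.14). None of these passed, though their libraries did not overlap. Cox7a2l and Ndufa2 passed with TMM scaling (limma adjusted p = 0.041 and 0.044), and all 3 passed with the processing set, a low-data status that 7 of the 19 tables carry, as covariate (limma adjusted p = 0.017, 0.015 and 0.026). Cox7a2l also passed without Lgr5-DTR luminal replicate 3 (limma adjusted p = 0.027). Markers of other cells had unlike levels in the same libraries. As sums, macrophage markers averaged 53.8 FPKM in Lgr5-DTR and 14.1 FPKM in wild type luminal libraries, fibroblast markers 107 and 45.8 FPKM, and erythrocyte markers 152 and 451 FPKM. The fibroblast difference came from the collagens, with Col1a1 at 18.1 to 39.8 FPKM in Lgr5-DTR and 3.23 to 5.45 FPKM in wild type libraries. Dcn leaned the other way, at 7.38 to 15.3 and 11.9 to 34.6 FPKM, and Lum, Pdgfra and Dpt stayed under 1 FPKM. The erythrocyte sums overlapped, at 83.2 to 288 and 121 to 667 FPKM. Schwann cell markers summed to 59.3 to 128 FPKM in Lgr5-DTR and 35.9 to 50.7 FPKM in wild type luminal libraries. Their part in the differences of the members was not tested. Here too length moved with the result, since all genes under 1000 bases had a median of -0.21 in Lgr5-DTR luminal cells and the members in that class -0.34. With the length trend removed the median of the members was -0.06.

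In basal cells 1 of 86 members was called, where 11.0% of all 9755 genes were. An unadjusted limma p under 0.05 was found in 22 of the 86, and in 2703 of all 9755 genes. The median of the members was -0.17, against 0.02 over all genes, and 59 of the 86 lay below 0. The groups did not overlap in 20 members that were lower and 5 that were higher in Lgr5-DTR mice, where 13.7% of all genes were lower and 17.5% higher in this way. The called member was Cox6b2, which fell to 0.942, 0.157 and 0.600 FPKM in Lgr5-DTR basal libraries, against 1.89, 4.71 and 4.09 FPKM in wild type basal libraries (-1.52, SE 0.30, limma adjusted p = 0.016). These are low levels. Only the wild type basal libraries reached 1 FPKM, so the gene met the filter through the group where it was high. It was therefore not tested when a wild type basal library was left out. Without Lgr5-DTR basal replicate 2 the gene did not pass (adjusted p = 0.0777), nor with no filter on low values (adjusted p = 0.0596). The basal Cox6b2 mean was 2.01% of the stromal one in Lgr5-DTR mice and 13.9% in wild type mice. Among the fibroblast markers Dcn was at 313 to 636 FPKM in Lgr5-DTR and 730 to 880 FPKM in wild type basal libraries, while each of the other 6 stayed at or below 1.85 FPKM there. Whether stromal RNA in the basal sort contributes to these values was not tested. Ndufa11, a subunit of the complex I membrane arm, measured 18.2, 13.8 and 11.1 FPKM, against 24.2, 20.0 and 25.4 FPKM in wild type basal libraries (-0.67, limma adjusted p = 0.062). Ndufa12 measured 86.5, 77.4 and 65.7 FPKM, against 61.3, 41.5 and 49.2 FPKM in wild type basal libraries (0.59, limma adjusted p = 0.072). The count of members called in basal cells was 19, all lower, without Lgr5-DTR basal replicate 1.

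By complex, the 29 supernumerary subunits of complex I, which surround its catalytic core, lay lower than its 7 core subunits. Their median difference was -0.37 in stromal cells, with 27 of 29 below 0, -0.35 in luminal cells, with 29 of 29 below 0, and -0.35 in basal cells, with 23 of 29 below 0. The core subunits had medians of -0.26, -0.20 and -0.06. The difference between these classes was not tested, and they were not matched for transcript length. All genes under 1000 bases had medians of -0.19 in stromal, -0.21 in luminal and 0.004 in basal cells. Over all genes the medians were -0.09, 0.10 and 0.02. Complex V had medians of -0.18 in stromal, -0.29 in luminal and -0.18 in basal cells, and complex IV of -0.19, -0.31 and -0.15. Complex II had medians of -0.20 in stromal and -0.35 in luminal cells but of 0.14 in basal cells, where all 4 subunits lay above 0. The assembly factor Ndufaf3 was lower without overlap in all 3 populations. It measured 2.61, 2.25, 2.90 and 3.02 FPKM in Lgr5-DTR and 3.82, 4.40 and 7.77 FPKM in wild type stromal libraries, and in luminal cells 8.60, 11.0 and 15.7 FPKM in Lgr5-DTR and 16.5, 18.8 and 16.6 FPKM in wild type libraries. Its basal values were 5.25, 4.72 and 3.54 FPKM in Lgr5-DTR and 6.14, 7.57 and 7.98 FPKM in wild type libraries. Its differences were -0.73, -0.56 and -0.59, and its adjusted p in limma was 0.27, 0.18 and 0.081. It was named after these values had been seen.

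In the summed FPKM the genotypes overlapped for all members in each population. After TMM scaling, which resets the libraries to a common level, the luminal sums did not overlap, at 9691, 13198 and 12842 in Lgr5-DTR and 16064, 18451 and 14786 in wild type libraries. In FPKM the ratio of the Lgr5-DTR to the wild type sum was 0.905 ± 0.138 in stromal, 0.810 ± 0.165 in luminal and 0.902 ± 0.145 in basal cells. For complex I it was 0.814 ± 0.12, 0.790 ± 0.19 and 0.836 ± 0.15, and for complex V 0.993 ± 0.14, 0.872 ± 0.16 and 0.909 ± 0.15. Without overlap were the luminal complex I assembly factors, at 45.8 ± 4.31 FPKM in Lgr5-DTR and 53.6 ± 2.85 FPKM in wild type libraries (SD, n = 3 each).

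**Figure D5:**
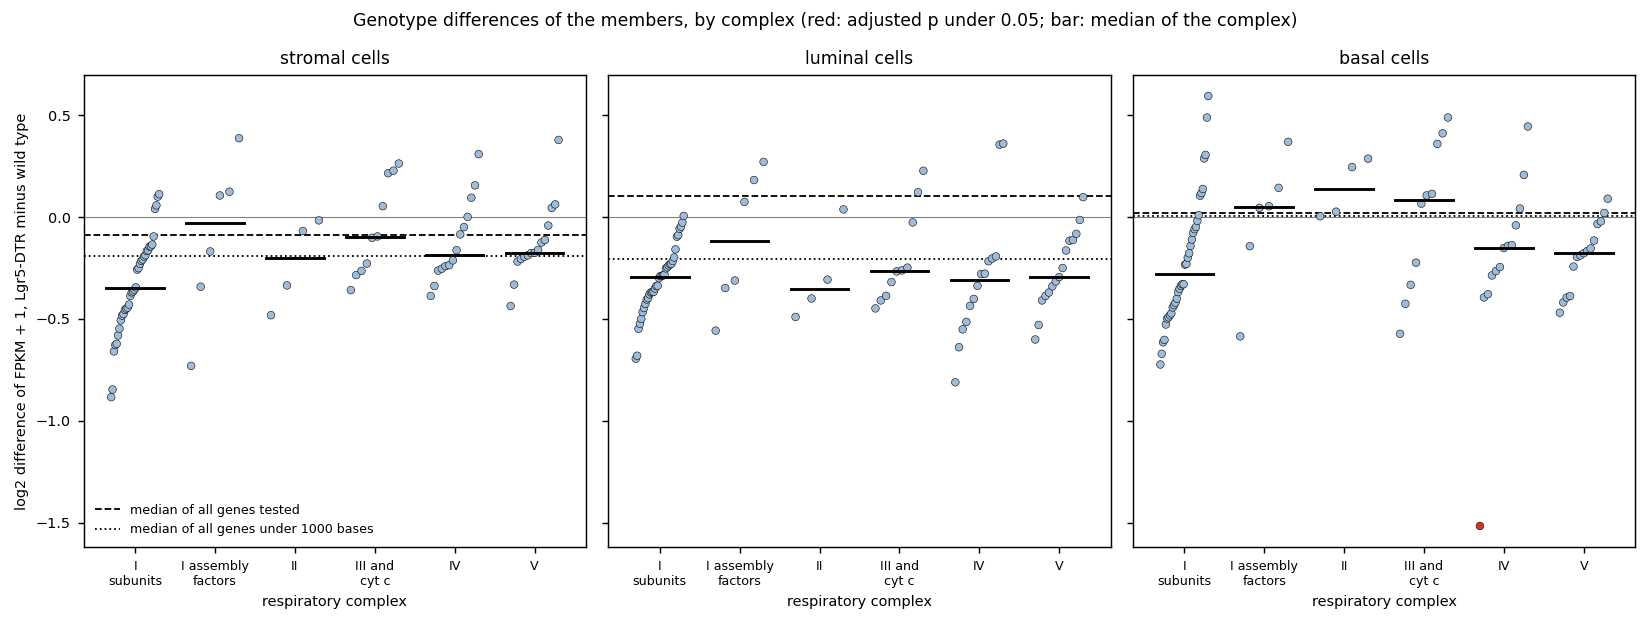
Log2 differences of Lgr5-DTR against wild type for every tested member (points), by complex, in stromal, luminal and basal cells, with a bar for the median of each complex, a dashed line for the median of all genes tested and a dotted line for that of all genes under 1000 bases. Most points lie a little below 0 in each population, and Cox6b2 in basal cells is the member past the threshold (red).

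The difference between the populations in the effect of genotype was tested as an interaction. In stromal against basal cells 1 of 86 members was called, where 2.98% of all genes were. It was Cox6b2, at 1.61 (SE 0.42, limma adjusted p = 0.049), from a genotype difference of 0.10 in stromal and -1.52 in basal cells. In basal cells Cox6b2 met the filter only through the wild type libraries, where it was high. Of the 10 leave-outs in which it was still tested it passed in 2 (adjusted p 0.0226 to 0.170). Atp5d, the delta subunit of ATP synthase, came next, with 368, 426, 504 and 352 FPKM in Lgr5-DTR and 290, 380 and 280 FPKM in wild type stromal libraries, and with 189, 194 and 173 FPKM in Lgr5-DTR and 276, 235 and 263 FPKM in wild type basal libraries (0.85, limma adjusted p = 0.085). In luminal against basal cells 0 of 85 were called, where 4.26% of all genes were. The nearest were Sdhb, at -0.78 (SE 0.22, limma adjusted p = 0.058), Ndufb7 at -0.84 (limma adjusted p = 0.079) and Uqcrq at -0.94 (limma adjusted p = 0.081), and all 3 passed with the processing set as covariate (limma adjusted p = 0.021, 0.026 and 0.018). Sdhb measured 88.9, 92.6 and 111 FPKM in Lgr5-DTR luminal libraries, against 131, 160 and 122 FPKM in wild type ones, but 67.2, 77.9 and 70.2 FPKM in Lgr5-DTR basal libraries, against 64.2, 54.9 and 56.9 FPKM in wild type ones. In stromal against luminal cells 0 of 86 were called, where 2.51% of all genes were.

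Other genes of mitochondrial energy metabolism were followed in lists, which were not examined by transcript length. Of all genes tested in wild type luminal against basal cells, 36.8% were higher and 25.5% lower. Of 36 assembly factors of complexes II to V, 25 were higher and 3 lower in wild type luminal than basal cells, and Uqcc3, an assembly factor of complex III, measured 62.0, 83.1 and 73.7 FPKM in luminal libraries, against 6.69, 5.58 and 8.45 FPKM in basal libraries. Of 13 citric acid cycle genes 7 were higher and 4 lower, with the fumarase gene Fh1 at 1.49 and the succinyl-CoA ligase gene Suclg1 at 1.72, and of 76 mitochondrial ribosomal proteins 39 were higher and 6 lower. Of the 11 regulators of mitochondrial biogenesis, 2 were higher and 5 lower in luminal than basal cells. Nrf1, nuclear respiratory factor 1, measured 8.32, 6.17 and 4.84 FPKM in wild type luminal libraries, against 23.5, 16.5 and 17.5 FPKM in wild type basal libraries (-1.45, limma adjusted p = 0.000208), and Gabpb1, a partner of GABPA, was at -1.41 (limma adjusted p = 0.000198). In stromal against luminal cells 26 of the assembly factors, 10 of the cycle genes and 55 of the ribosomal proteins were lower, and 2, 0 and 0 were higher. Of all genes 39.3% were lower and 28.5% higher there.

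Between the genotypes, in basal cells, where 11.0% of all genes were called, 5 of 33 assembly factors were higher and 2 lower, 1 of 13 cycle genes was higher, 3 of 11 carriers and inhibitors were lower, and of 76 mitochondrial ribosomal proteins 4 were higher and 1 lower. Ucp2, a carrier of the inner membrane related to the uncoupling protein of brown fat, fell to 40.3, 34.6 and 26.6 FPKM in Lgr5-DTR basal libraries, against 112, 133 and 103 FPKM in wild type basal libraries (-1.76, SE 0.19, limma adjusted p = 0.0016). Atpif1, the inhibitor of ATP synthase, was at -0.72 (limma adjusted p = 0.045) and the ADP/ATP carrier gene Slc25a4 at -0.57 (limma adjusted p = 0.033). Fh1 rose to 36.3, 46.9 and 33.2 FPKM in Lgr5-DTR basal libraries, against 20.7, 22.6 and 21.1 FPKM in wild type ones (0.81, limma adjusted p = 0.016). Cox16, an assembly factor of complex IV, was listed at 0 in all 3 Lgr5-DTR basal libraries, against 9.13 to 15.9 FPKM in the wild type basal libraries. Cmc1, another such factor, was listed at 0 in every library but the 3 of wild type luminal cells, where it stood at 8.58 to 9.64 FPKM. Such a 0 can be a failed estimate, and no genotype difference is read from it: Surf1, a complex IV assembly factor in general use, was listed at 0 in all 19 libraries. In luminal cells, where 3.14% of all genes were called, 2 of 36 assembly factors and 1 of 76 ribosomal proteins were lower and none higher. Genes listed at 0 in a whole group were not taken out of these counts. The assembly factors counted as lower may thus hold Cmc1 in luminal and Cox16 in basal cells. The wild type population counts of these factors may likewise hold Cmc1, as higher in luminal than basal and as lower in stromal than luminal cells. In stromal cells, where 1.17% were called, no gene of these lists passed.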

How the data were processed

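The authors aligned the reads with TopHat2 and estimated levels with Cufflinks against mm10, per the submitters' processing notes, no version of either being given in the sources used here. FPKM and read coverage of 34535 transcripts were deposited, per the file headers. RNA was amplified with a low-input full-length kit and made into libraries by tagmentation, per the labels' protocols. Coverage times transcript length gave the depth of 5.26 to 9.38 gigabases. These are not counts, so precision comes from the replicates.

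FPKM were summed per gene symbol and transformed as log2(FPKM + 1). A gene was tested where at least 3 libraries of the groups compared reached 1 FPKM. Tests over all genes used limma 3.58.1, with the trend and robust options of its empirical Bayes step, under R 4.3.3, and Benjamini-Hochberg adjustment at 0.05. Each genotype difference was fitted in its own population, population differences over the 9 wild type libraries, and interactions over the libraries of both populations. Tables were joined with Python 3.11.15 and pandas 2.3.3. The tests were checked on simulated data.

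Members and lists were chosen with earlier results of these data known. Named genes were, per comparison and complex, up to 3 called and non-overlapping members per direction with the smallest p, or else the member with the smallest p, the 5 with the smallest p per interaction, the highest member of each complex, the isoform pairs, Cycs, the Sdh genes, up to 3 per other list and a few regulators. Of these the text gives a selection, 1 member is counted but its values are not reported here, and members it names outside the rule were chosen after their values were seen. Alternatives were another pseudocount, no filter, TMM and quantile scaling, the leading transcript, a processing set of 7 libraries with low-data status as covariate, a replicate block, each library left out, and removal of the length trend, the last added after seeing the data.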

Additional observations from a re-analysis of the deposited data

Results flagged for a closer look

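Within the group of 4 Lgr5-DTR stromal libraries, 64 items were screened for a library standing apart from the other 3 (Dixon's ratio over 0.829), where chance flags about 1 group in 20. In library 1, Cox7a2 was highest at 54.5 FPKM (others 36.3 to 37.8), Ndufa11 at 10.4 FPKM (8.08 to 8.41), Ndufa2 at 107 FPKM (66.8 to 71.7) and Sdhb at 55.4 FPKM (43.5 to 44.5). Ndufa9 was lowest in library 3 at 13.1 FPKM (19.6 to 20.8), and Atp5a1 was lowest in library 4 at 121 FPKM (155 to 159). The genotype difference of Cox6b2 differed between stromal and basal cells by 1.61 on the log2 scale (limma adjusted p = 0.0491). In basal cells the gene met the filter only through the wild type libraries, where it was high.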

How the results depend on the processing

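Among the population comparisons the number of members called stayed within 1.5 times under each alternative, with 57 to 70 in luminal against basal, 38 to 52 in stromal against basal and 80 to 84 in stromal against luminal cells when each library was left out. Their direction moved more: with the length trend removed, luminal against basal cells had 28 members higher and 16 lower, against 64 and 2 before, and 4 members changed from higher to lower. Removing the trend turned 12 named luminal against basal differences negative: Atp5d -0.39, Cox4i1 -0.28, Cox6a1 -0.31, Cox6b1 -0.31, Cox7a2 -0.40, Ndufa12 -0.068, Ndufa4 -0.12, Ndufa7 -0.15, Ndufb8 -0.50, Ndufb9 -0.025, Uqcr10 -0.20 and Uqcrh -0.48. It turned stromal against luminal Atp5d to 0.67 and Uqcrh to 0.52. TMM scaling gave all-member ratios of 0.458 for wild type stromal to luminal, 1.21 for Lgr5-DTR luminal to basal and 0.625 for Lgr5-DTR stromal to luminal cells, and moved the median of all genes in luminal against basal cells to -0.01, against 0.14 before, with 54 members higher and 3 lower. In each case the cause was not tested.

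Counts of members called by genotype were small and moved. In basal cells they were 0 with no filter, 2 with TMM, 8 with quantile normalization, 0 with the leading transcript, 10 with the length trend removed and 0 to 19 with each library left out, with 0 without Lgr5-DTR basal replicate 2 or wild type basal replicate 2 or 3. In luminal cells they were 2 with TMM, 14, all lower, with the processing set as covariate and 0 to 3 with each library left out, with 3 without Lgr5-DTR luminal replicate 3. In stromal cells they were 0 in each such fit. For the interaction of luminal against basal cells they were 2 with TMM, 1 with quantile normalization, 8 with the processing set, 2 with the length trend removed and 0 to 2 with each library left out. For stromal against basal cells they were 0 with no filter, 2 with TMM, 0 with the leading transcript, 2 with the length trend removed and 0 to 1 with each library left out.

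Deviations of libraries of a genotype that share the number in their titles correlated at -0.03 to 0.35 in 10 pairs. The median was 0.146, against -0.029 for different numbers, and 7 of 14 libraries correlated best with their own number. Not every pair was above 0.1, so the numbers were not taken to pair the samples. The genotype fits were blocked on another number, that of the library within its group, which is not known to pair Lgr5-DTR with wild type libraries. Deviations of libraries sharing it correlated at -0.488 to 0.462 in 9 pairs (median -0.0405, against -0.0921 for different numbers). With it as a block, 4 members were called in stromal cells, with Ndufv3 (-1.06, limma adjusted p = 0.0090) and Ndufa13 (-0.65, 0.048) among them. In luminal cells 3 were called, with Cox7a2l (0.029) and Ndufa2 (0.049) among them, and in basal cells 0. With the title number as a block, 1 and 2 members were called in the luminal and stromal against basal interactions. The 3 or 4 libraries of each group limit the precision throughout.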
